A study of Mus musculus with 6 samples.

Results

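The 9 genes described here were read across every library of an RNA-seq study of the mouse medial ganglionic eminence (MGE), a germinal zone of the ventral forebrain and a main source of cortical interneurons. Of 49315 genes in the count table, they are Zfp503, Meis2, Bcl11b, Ebf1, Foxp1, Foxp2, Ikzf1, Drd1 and Ppp1r1b. They were chosen as a list of symbols of the striatal projection neuron lineage, matched to Ensembl gene IDs with GENCODE M21, and all 9 passed the filter on low counts, as did 18079 genes in all. Total RNA came from eminences dissected at embryonic day 14. The group labelled KO was Nkx2.1-Cre; Prdm16 fl/fl; Ai14 and the group labelled WT was Nkx2.1-Cre; Prdm16+/+; Ai14, so both carried the Cre driver, which acts in the Nkx2.1 lineage of the MGE, and the Ai14 reporter. Each group held 3 libraries, each from 1 pool of 3 embryos (6 MGEs). Total counts per library ran from 36517047 to 55552298 in KO and from 33188277 to 46301483 in WT.

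In the pools labelled KO 8 of the 9 genes were lower than in WT, and none was higher. The falls ran from 1.32-fold for Foxp2 to 4.03-fold for Ikzf1. Ppp1r1b pointed the same way and did not pass the test. Without WT 3 only 5 of the 9 were called. Ebf1 and Foxp2 lost their calls without KO 2 or WT 1 as well. Foxp2 also lost its call without KO 3 or WT 2. At an adjusted p under 0.05 and a fall of at least 2-fold stood 4 of the 9 (Ikzf1, Drd1, Ebf1 and Foxp1), against 2.01% of tested genes. Over all tested genes 10.5% were called lower (1897) and 9.72% higher (1758), both at an adjusted p under 0.05 in edgeR's quasi-likelihood test. Without KO 1 there were 3804 lower and 3752 higher genes, and without KO 2 779 and 584. Without KO 3, WT 1, WT 2 and WT 3 in turn 784, 1150, 728 and 727 genes were called lower and 603, 810, 482 and 464 higher. Scaled to pan-neuronal genes the counts were 1175 lower and 3350 higher. The median log2 fold change was -1.03 over the 9 genes and -0.0024 over all tested genes. In each of the 9 genes all 3 KO pools lay below all 3 WT pools, a pattern held by 19.6% of tested genes. The 9 genes were chosen with earlier results of these data known, so these counts describe the list and are not a test of it.

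Striatal projection neurons are the GABAergic output cells of the striatum. Most of them are born in the lateral ganglionic eminence, which borders the MGE and lies outside the main domain of Nkx2.1, and they settle as direct pathway cells, marked by the D1 dopamine receptor, or as indirect pathway cells, marked by the D2 receptor and enkephalin. Zfp503, Meis2, Bcl11b, Ebf1, Foxp1, Foxp2 and Ikzf1 encode transcription factors of progenitors or young neurons in this lineage, whereas Drd1 and Ppp1r1b encode signalling proteins of the mature cell. Several of these genes are also used by other cells, such as Ikzf1 in blood cells, Ebf1 in pericytes and B cells, and Bcl11b in cortical neurons. In whole tissue, fewer cells of a type and less RNA per cell cannot be told apart.

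Prdm16, the floxed gene, had 53.6, 51.3 and 45.8 counts per 1000000 (CPM, scaled with TMM factors) in KO 1 to 3, against 55.8, 47.0 and 45.4 CPM in WT 1 to 3. These reads were summed over the whole gene. The deleted exons are not named in the labels, so gene counts do not check the genotype, and the direction of each difference rests on the labels. The labelled tissue was checked against MGE markers, among which Nkx2-1 had 637 to 861 CPM in KO and 615 to 674 CPM in WT. Among the libraries KO 1 stood apart on the second principal component (34.99, against values from -12.4 to -0.468 in the other 5), which held 16.11% of the variance. On the first component, which held 55.89%, KO 1 at -15.9 lay nearer to the WT pools than KO 2 at -35.4 and KO 3 at -37.2.

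Per length of exon the 9 genes spanned a wide range of levels, in the same order in both groups. Bcl11b was highest at 40.5 ± 6.28 RPKM (CPM per kilobase of exon) in KO and 66.6 ± 5.85 RPKM in WT (SD, n = 3 each, as below). Meis2 followed with 19.9 ± 2.72 RPKM in KO and 28.3 ± 2.52 RPKM in WT, and Zfp503 with 9.81 ± 1.75 RPKM in KO and 18.5 ± 3.06 RPKM in WT. Ebf1, Foxp1 and Foxp2 formed a middle tier, from 2.30 to 5.19 RPKM in KO and from 3.03 to 10.9 RPKM in WT. Ikzf1 was near 1 RPKM in WT only, at 0.274 ± 0.0351 RPKM in KO and 1.10 ± 0.261 RPKM in WT. Ppp1r1b and Drd1 came last, at 0.213 ± 0.0926 and 0.0996 ± 0.0498 RPKM in KO and 0.429 ± 0.120 and 0.374 ± 0.0408 RPKM in WT. The pools of these last 2 genes overlapped in level in both groups, and those of Ikzf1 and Ppp1r1b overlapped in KO, so their order is not settled by these data.

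**Figure D1:**
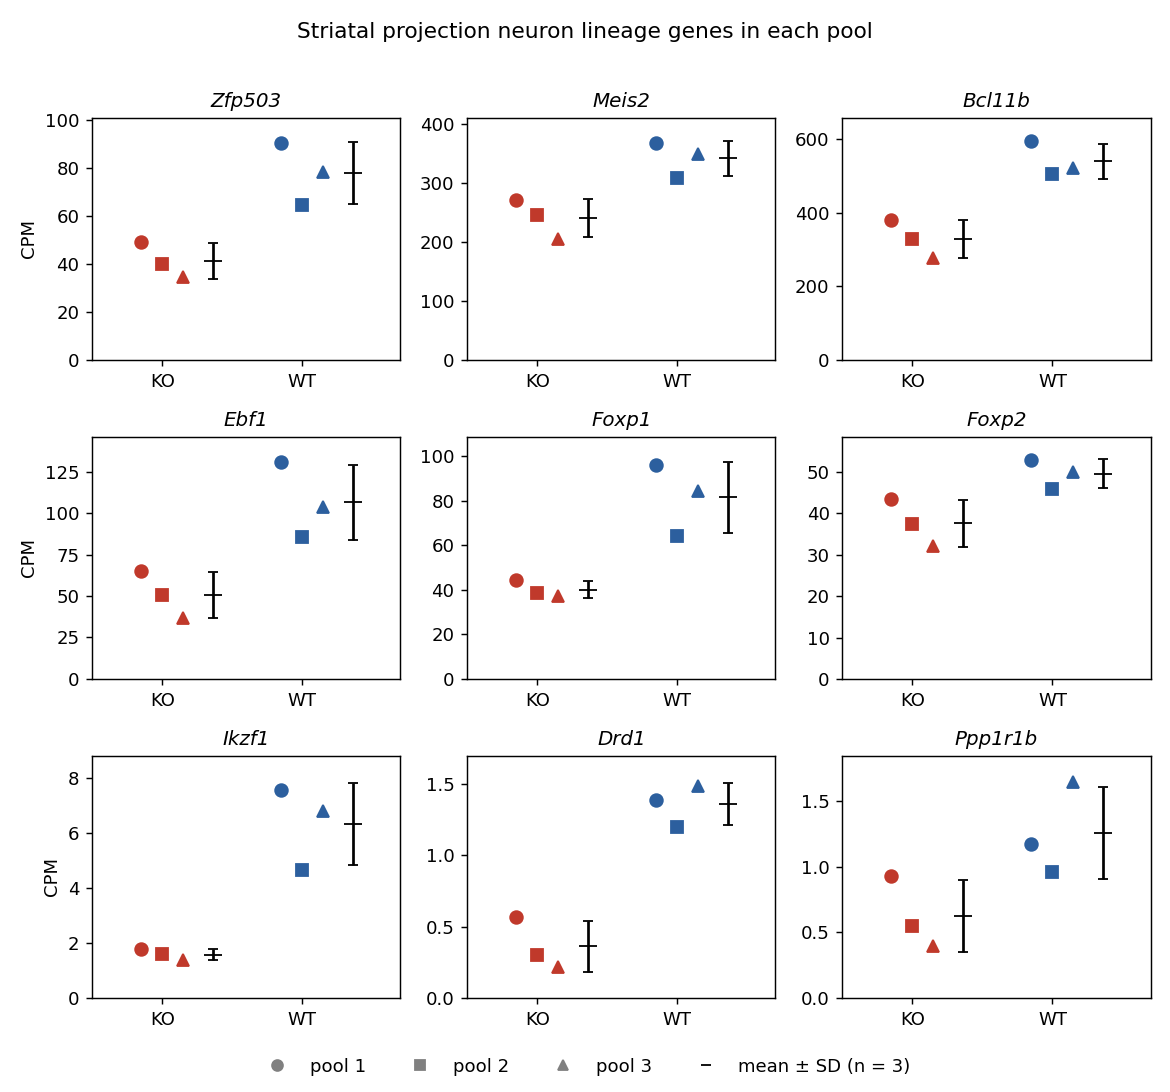
CPM of each of the 9 lineage genes in every pool, KO left of WT, with 1 symbol per pool number and the mean ± SD of 3 pools in black; each vertical axis starts at 0. In every panel the 3 KO pools lie below the 3 WT pools, with the narrowest gaps in Foxp2 and Ppp1r1b.

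The first group of members holds factors that appear early in the lineage. Zfp503, also called Nolz1, encodes a zinc finger repressor of the developing striatum (ENSMUSG00000039081, GRCm38 chromosome 14, 21983959 to 21989601). It had 49.3, 40.0 and 34.7 CPM in KO 1 to 3, against 90.4, 64.6 and 78.7 CPM in WT 1 to 3. The groups did not overlap, and the highest KO pool stood at 76.3% of the lowest WT pool. The difference was 1.89-fold (log2 fold change -0.92, SE 0.15, edgeR adjusted p = 0.0069). With no filter on low counts the call was lost (adjusted p = 0.0604).

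Meis2 encodes a TALE homeodomain partner of other homeodomain proteins and is broadly used in the ganglionic eminences (ENSMUSG00000027210, chromosome 2, 115863064 to 116065839). Its levels were 270.2, 245.2 and 205 CPM in KO 1 to 3, against 367, 308 and 349 CPM in WT 1 to 3. KO 1 reached 87.9% of WT 2, so the groups were separate by a small margin. Meis2 fell 1.42-fold (log2 fold change -0.51, SE 0.10, edgeR adjusted p = 0.011). Without WT 3 the call was lost (adjusted p = 0.0505).

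Bcl11b, which encodes the zinc finger factor CTIP2 needed for differentiation of projection neurons in the striatum, had the most reads of the 9 genes (ENSMUSG00000048251, chromosome 12, 107910403 to 108003602). It had 380.2, 328 and 278 CPM in KO 1 to 3, against 594, 505 and 521 CPM in WT 1 to 3. No KO pool came above 75.3% of the lowest WT pool. The fall was 1.64-fold (log2 fold change -0.72, SE 0.11, edgeR adjusted p = 0.00324), and the call was kept in all 16 alternatives tried.

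The second group marks young projection neurons of the mantle. Ebf1 encodes a helix-loop-helix factor of direct pathway neurons (ENSMUSG00000057098, chromosome 11, 44617317 to 45008091). Its levels were 64.8, 50.5 and 36.5 CPM in KO 1 to 3, against 130.5 CPM in WT 1, 85.4 CPM in WT 2 and 104 CPM in WT 3. These pools were the least even of the well-counted members, with a coefficient of variation of 28.0% in KO and 21.3% in WT. Ebf1 fell 2.11-fold (log2 fold change -1.08, SE 0.24, edgeR adjusted p = 0.0297). Its call was lost without KO 2, WT 1 or WT 3 (adjusted p = 0.0999, 0.0537 and 0.0909), with no filter on low counts (0.112) and with pan-neuronal scaling (0.0706), while its log2 fold change stayed between -1.30 and -0.88.

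Foxp1 and Foxp2 encode forkhead repressors of striatal and other forebrain neurons. Foxp1 (ENSMUSG00000030067, chromosome 6, 98925338 to 99522721) had 44.5, 38.4 and 37.2 CPM in KO 1 to 3, against 96.0, 64.3 and 84.2 CPM in WT 1 to 3. Its KO pools were close together and its WT pools were spread, with WT 2 lowest. Foxp1 fell 2.04-fold (log2 fold change -1.03, SE 0.14, edgeR adjusted p = 0.0024) and kept its call in all 16 alternatives. Foxp2 (ENSMUSG00000029563, chromosome 6, 14901349 to 15441977) had 43.4, 37.4 and 32.0 CPM in KO 1 to 3, against 52.9, 45.9 and 49.9 CPM in WT 1 to 3. Here KO 1 reached 94.5% of WT 2. Foxp2 fell 1.32-fold (log2 fold change -0.40, SE 0.10, edgeR adjusted p = 0.0272), the smallest change of the 9, and its call was lost in 6 of 16 alternatives, among them the removal of any 1 pool other than KO 1 (adjusted p from 0.0558 to 0.0934).

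The forkhead pair was also compared within pools. The ratio of Foxp1 to Foxp2 counts within a pool was 1.03, 1.02 and 1.16 in KO 1 to 3, against 1.81, 1.40 and 1.69 in WT 1 to 3. The ratios did not overlap between the groups. The mean log2 ratio was 0.10 ± 0.10 in KO and 0.70 ± 0.19 in WT, a difference of -0.60 (two-sided p = 0.1 by exact permutation, as low as 3 against 3 pools can reach, and 0.1 after adjustment over the 6 ratios examined). Such ratios do not depend on library scaling.

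Ikzf1 encodes Ikaros, a zinc finger factor of lymphocyte development that in the striatum takes part in making enkephalin-positive neurons. The gene (ENSMUSG00000018654) lies on chromosome 11, 11685003 to 11772926. It had 1.78, 1.59 and 1.38 CPM in KO 1 to 3 (79, 58 and 76 reads), against 7.57, 4.66 and 6.81 CPM in WT 1 to 3 (349, 156 and 261 reads). Even the highest KO pool held 38.3% of the lowest WT pool, the widest gap of the 9 genes. Ikzf1 fell 4.03-fold (log2 fold change -2.01, SE 0.20, edgeR adjusted p = 0.000334), and over the 16 alternatives its log2 fold change lay between -2.19 and -1.86 with the call kept in each.

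Drd1 and Ppp1r1b are markers of the mature cell and were near the lower limit of these libraries at this age. Drd1 encodes the D1 dopamine receptor of direct pathway neurons (ENSMUSG00000021478, chromosome 13, 54051183 to 54055705). It had 25, 11 and 12 reads in KO 1 to 3 (0.564, 0.302 and 0.217 CPM), against 64, 40 and 57 reads in WT 1 to 3 (1.39, 1.19 and 1.49 CPM). The WT pools were even and the KO pools were not, since KO 1 stood 2.59 times as high as KO 3. Drd1 fell 3.79-fold, with a 95% interval of the KO over WT fold from 0.163 to 0.426 (log2 fold change -1.92, SE 0.31, edgeR adjusted p = 0.0041). The call was kept in all 16 alternatives.

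Ppp1r1b encodes DARPP-32, the phosphatase inhibitor that relays dopamine signals in projection neurons (ENSMUSG00000061718, chromosome 11, 98348404 to 98357796). It had 41, 20 and 22 reads in KO 1 to 3 (0.925, 0.549 and 0.399 CPM), against 54, 32 and 63 reads in WT 1 to 3 (1.17, 0.956 and 1.64 CPM). KO 1 stood at 96.8% of WT 2, so the groups barely separated. Its log2 fold change of -1.03 (SE 0.32) missed the threshold (edgeR adjusted p = 0.0508), and the 95% interval of the fold was 0.297 to 0.811. Without KO 1 it was -1.43 and passed (adjusted p = 0.002). The gene shares 460 exonic bases with 1700003D09Rik on the other strand, which had at most 1 read per library, and the strand setting of the counting is not stated.

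Ikzf1, Ebf1 and Drd1 are shown by the 250 bases before a RefSeq start site, as members that moved together and that include the largest falls. The windows, on build GRCm38.p6, are chr11:11685675-11685924 (plus strand) for Ikzf1, chr11:44619978-44620227 (plus strand) for Ebf1 and chr13:54054781-54055030 (minus strand) for Drd1, and hold no annotated exon of GENCODE M21. Capitals mark an EBF core in Ikzf1 and an Ikaros core in Ebf1 and Drd1, read 5′ to 3′ on the strand of the gene. The other window of each of these genes, not printed, held none of the cores listed below.
Ikzf1: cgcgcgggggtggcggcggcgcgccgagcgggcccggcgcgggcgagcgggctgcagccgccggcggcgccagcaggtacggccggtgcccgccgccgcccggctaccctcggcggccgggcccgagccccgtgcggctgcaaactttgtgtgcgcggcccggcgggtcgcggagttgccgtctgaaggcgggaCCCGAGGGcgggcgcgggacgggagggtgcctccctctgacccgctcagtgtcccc
Ebf1: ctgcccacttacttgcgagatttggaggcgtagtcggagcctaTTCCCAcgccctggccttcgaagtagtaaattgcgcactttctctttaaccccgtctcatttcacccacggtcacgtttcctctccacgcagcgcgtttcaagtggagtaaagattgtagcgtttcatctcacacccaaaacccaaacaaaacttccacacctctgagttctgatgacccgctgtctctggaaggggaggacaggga
Drd1: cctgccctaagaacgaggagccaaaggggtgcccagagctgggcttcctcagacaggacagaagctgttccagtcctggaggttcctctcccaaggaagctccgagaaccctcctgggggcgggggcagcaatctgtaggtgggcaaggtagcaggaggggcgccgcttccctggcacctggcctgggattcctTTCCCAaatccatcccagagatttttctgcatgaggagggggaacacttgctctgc
The Ikzf1 window is very rich in G and C (82.0%, with 44 CpG), the Drd1 window holds 60.8% and the Ebf1 window 52.0%, against a median of 52.4% over all 32851 RefSeq windows of this length.

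Sequence windows were matched for 7 of the 9 genes, with 12 start sites in all. Both strands were searched for the EBF core CCCNNGGG, the Ikaros core TGGGAA, the MEIS core TGACAG, the homeodomain core TAATTA, the forkhead core TGTTTAC and the CAGCTG E-box, of which none holds another. The EBF core was in 3 of 12 windows (Ikzf1, Foxp1 and Bcl11b), against 11.8% of all windows, and the Ikaros core was in 2 of 12, against 21.6%. A TAATTA lay in 1 Foxp1 window, which also held a TGACAG (4.84% and 15.9% of all windows). The forkhead core and the E-box, at 3.17% and 13.0% of all windows, were in none of the 12. A match describes letters only and is no evidence of binding.

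Within each group the 9 genes varied together from pool to pool. KO 1 was the highest and KO 3 the lowest of the KO pools in 9 of 9 genes, an order held by 22.4% of all tested genes and by 43.9% of those called lower. WT 2 was the lowest WT pool in 9 of 9 genes, against 34.0% of all tested genes and 23.0% of those called lower. Both held together in 9 of 9 genes, against 5.87% of tested genes and 9.91% of those called lower. Between each pair of members, deviations from the group means correlated at 0.584 to 0.981 over the 6 pools (Pearson, median 0.857, 36 pairs). The orders were taken from the values of these same 9 genes, and the correlations were not set against other genes. Both describe shared pools and are no test.

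**Figure D2:**
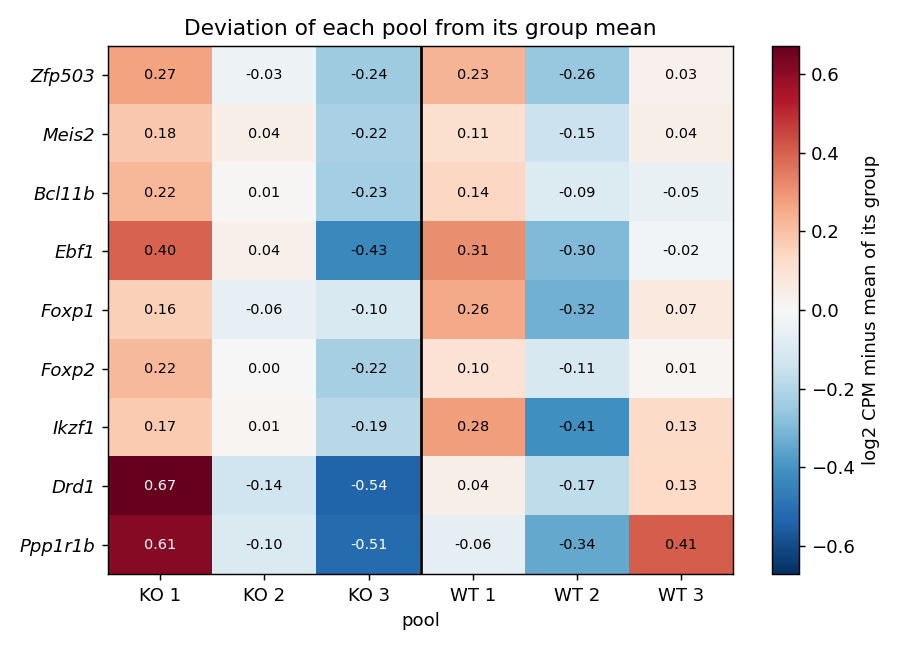
Deviation of log2 CPM from the mean of its own group for each of the 9 genes (rows) in each pool (columns, KO left of WT), with red above and blue below the group mean. KO 1 is above and KO 3 below the KO mean in all 9 rows, and WT 2 is below the WT mean in all 9 rows.

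The size of these pool differences varied by gene. In KO the ratio of the highest to the lowest pool ran from 1.20 for Foxp1 to 2.59 for Drd1, and in WT from 1.15 for Foxp2 to 1.72 for Ppp1r1b. Summed over the 9 genes, the level was 856, 741 and 626 CPM in KO 1 to 3, against 1340, 1080 and 1196 CPM in WT 1 to 3, of which Bcl11b and Meis2 made up most. Rarb, a retinoic acid receptor gene outside the list, had the same order of pools, at 5.39, 4.28 and 3.14 CPM in KO 1 to 3 and 18.7, 11.3 and 15.6 CPM in WT 1 to 3. Bcl11a had this order too, but other lineage markers did not. Rxrg was lowest in KO 2 (6.45, 3.73 and 5.22 CPM in KO 1 to 3). Gnal was lowest of the WT pools in WT 1 (41.6, 45.0 and 49.2 CPM in WT 1 to 3). The share of neighbouring tissue in each dissection is not given in the labels, and its part in these pool differences was not tested.

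For each of the 8 genes that fell, the protein-coding gene with the most similar profile over the 6 pools was sought by Pearson correlation of log2 CPM. The correlations lay between 0.997 and 1.00 and are descriptions over 6 pools that share 1 group difference. Enox1 was nearest to Zfp503, Sema3f, which encodes a secreted guidance protein, to Ikzf1, and Lmcd1 to Bcl11b, and each of the 3 was itself lower in KO (by 1.34-fold, 1.41-fold and 2.22-fold, edgeR adjusted p = 0.00601, 0.00122 and 0.00433). Zhx3, nearest to Drd1, was 1.27-fold lower (edgeR adjusted p = 0.0105), a call lost without WT 3. The nearest genes to Ebf1, Foxp1, Foxp2 and Meis2, namely Glud1, 2700081O15Rik, Tnpo2 and Kdsr, did not pass, with folds of 1.09 to 1.14 in the same direction.

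Paralogs of the 9 genes gave a mixed picture, as 4 of 15 tested fell, 1 rose and 10 did not pass. Without KO 2, KO 3, WT 1, WT 2 or WT 3 only 2, 1, 2, 2 and 2 of them were called lower, and the number higher was 2 without KO 2 and 0 without KO 3, WT 2 or WT 3. Ikzf2, a close relative of Ikzf1, had 7.99, 7.93 and 7.32 CPM in KO 1 to 3, against 10.5, 10.8 and 10.01 CPM in WT 1 to 3 (log2 fold change -0.43, SE 0.09, edgeR adjusted p = 0.0132). Bcl11a, which encodes CTIP1, fell 1.25-fold and stood at 303 ± 13.9 CPM in KO and 378 ± 16.3 CPM in WT (edgeR adjusted p = 0.00923). Foxp4 had a log2 fold change of -0.38 (SE 0.09, edgeR adjusted p = 0.0221), and Drd2, which encodes the D2 dopamine receptor, one of -0.55 (SE 0.15, edgeR adjusted p = 0.032). The Drd2 call was lost without any 1 pool other than KO 1, the Foxp4 call without KO 2, KO 3, WT 1 or WT 3, and the Ikzf2 call without KO 3 or WT 2. With pan-neuronal scaling Bcl11a and Ikzf2 did not pass (edgeR adjusted p = 0.110 and 0.0596), and 2 paralogs were lower and 3 higher. With the replicate number as a block Drd2 did not pass (edgeR adjusted p = 0.061).

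Other paralogs pointed the other way or stayed near 0. Meis3 rose, with a log2 fold change of 0.26 (SE 0.06, edgeR adjusted p = 0.0186) and the call lost without KO 2, KO 3, WT 2 or WT 3, and Meis1 was at 0.04 (SE 0.07, edgeR adjusted p = 0.721), beside -0.51 for Meis2. Ebf2 and Ebf3, at log2 fold changes of 1.36 and 1.05, did not pass (edgeR adjusted p = 0.0509 and 0.0702) but did without KO 2 (0.0118 and 0.0356), and their pools were uneven, with 2.69, 1.07 and 3.12 CPM of Ebf2 in KO 1 to 3 and 0.694, 1.40 and 0.678 CPM in WT 1 to 3. Differences between a member and its paralogs were not tested, apart from the Foxp1 to Foxp2 ratio given above and the Drd1 to Drd2 ratio. The Drd1 to Drd2 ratio was 0.154, 0.117 and 0.0625 in KO 1 to 3, against 0.275, 0.250 and 0.335 in WT 1 to 3. It did not overlap between the groups (difference of mean log2 ratios -1.41, exact two-sided permutation p = 0.1, the smallest allowed).

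**Figure D3:**
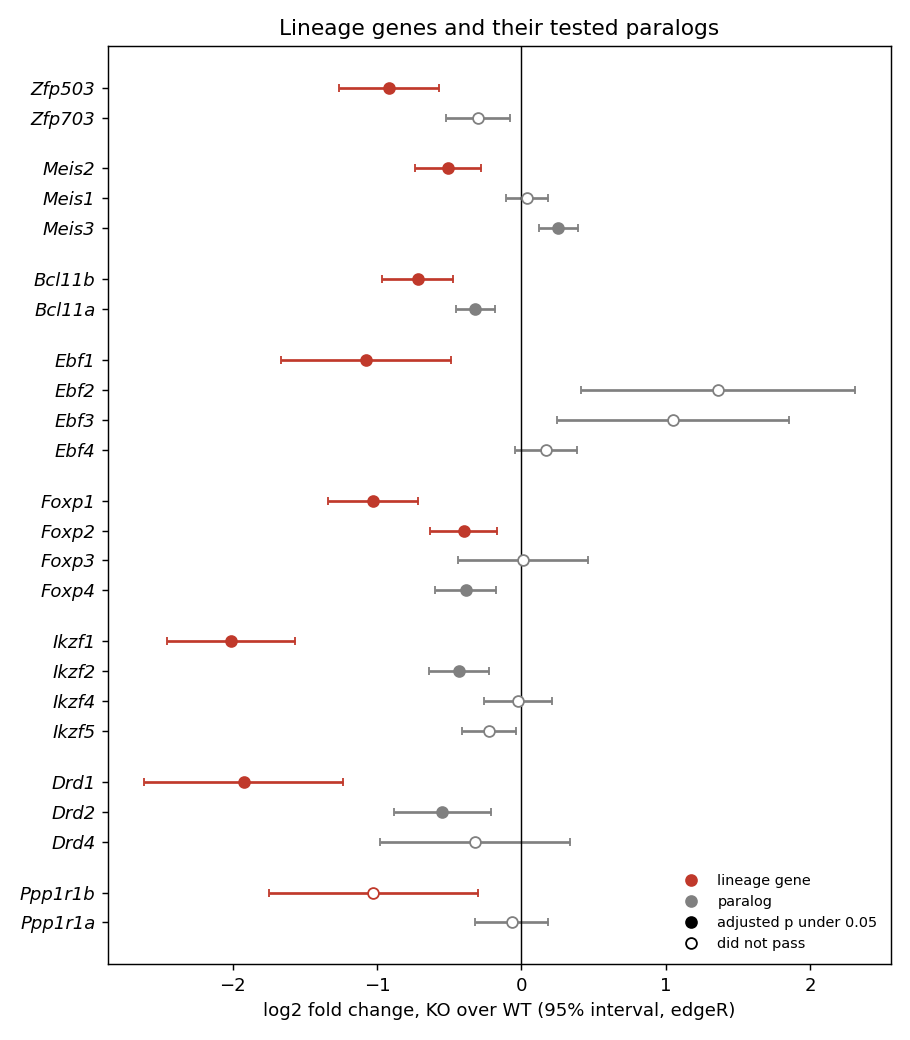
Log2 fold change (KO over WT, horizontal axis) with its 95% interval from edgeR for the 9 lineage genes (red) and their tested paralogs (grey), by family; filled points passed at an adjusted p under 0.05. All red points lie left of 0, from -2.01 for Ikzf1 to -0.40 for Foxp2, while Meis3, Ebf2, Ebf3 and Ebf4 lie to the right.

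Other genes of the projection neuron programme were read from lists written with earlier results known. The lists, paralogs included, share genes such as Sp9, Drd2, Bcl11a, Isl1, Meis1 and Pax6, so their counts are not separate. Of 17 general markers of the lineage 10 fell, none rose and 7 missed the threshold, with a median log2 fold change of -0.32. Without KO 2, KO 3, WT 2 or WT 3 the number lower was 4, 6, 5 and 5. It was 6 with pan-neuronal scaling and 6 with the replicate number as a block. Rarb, Rxrg and Gnal kept their calls in all 16 alternatives. Rarb fell 3.59-fold to 4.27 ± 1.13 CPM in KO, against 15.2 ± 3.69 CPM in WT (edgeR adjusted p = 0.00147). Rxrg, another retinoid receptor gene, fell 2.44-fold to 5.14 ± 1.36 CPM in KO, against 12.6 ± 1.73 CPM in WT (edgeR adjusted p = 0.00209). Gnal, which encodes the G protein subunit coupled to dopamine and adenosine receptors in the striatum, fell 1.77-fold to 25.5 ± 3.64 CPM in KO, against 45.3 ± 3.83 CPM in WT (edgeR adjusted p = 0.00114).

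Both output pathways had members that fell. Of 7 tested indirect pathway genes 4 fell, namely Penk, which encodes proenkephalin, Drd2, Adora2a, an adenosine receptor gene, and Sp9, a zinc finger factor gene. Penk had 1.26, 0.851 and 0.997 CPM in KO 1 to 3, against 2.95, 2.54 and 2.69 CPM in WT 1 to 3 (log2 fold change -1.39, SE 0.18, edgeR adjusted p = 0.00129), and its call was kept in all 16 alternatives. The number of the 7 called lower was 1, 2, 2, 2 and 1 without KO 2, KO 3, WT 1, WT 2 and WT 3. Of 8 direct pathway genes outside the list only Chrm4, a muscarinic receptor gene, fell (log2 fold change -0.65, SE 0.17, edgeR adjusted p = 0.0283), and its call was lost without KO 2, KO 3, WT 2 or WT 3. Isl1, which encodes a LIM homeodomain factor of direct pathway neurons and of cholinergic neurons, had 101, 106 and 97.02 CPM in KO 1 to 3, against 120, 94.8 and 113 CPM in WT 1 to 3, and did not pass (edgeR adjusted p = 0.375). Tac1, the substance P precursor gene, did not pass either, at a log2 fold change of 0.09 (SE 0.18, edgeR adjusted p = 0.762), beside -1.92 for Drd1.

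Upstream factors of the lateral ganglionic eminence were split in direction. Of 14 such genes 3 rose, 3 fell and 8 did not pass, with a median log2 fold change of -0.03. The number lower was 0 without KO 2, WT 1 or WT 3 and 1 without WT 2, and the number higher was 1 without WT 1 or WT 2. With pan-neuronal scaling 5 rose and 0 fell. Gsx2, a homeobox gene of progenitors that lies upstream of the projection neuron lineage, rose to 32.1, 40.3 and 40.9 CPM in KO 1 to 3, against 21.7, 17.1 and 18.4 CPM in WT 1 to 3 (edgeR adjusted p = 0.000783). Pax6, another progenitor gene, rose (log2 fold change 0.65, SE 0.16, edgeR adjusted p = 0.0203). Dlx6 and Sp9, which are used in neurons leaving the ventricular zone, fell by 0.26 and 0.34 on the log2 scale (edgeR adjusted p = 0.0242 and 0.0161). Gsx2 kept its call in all 16 alternatives, while Pax6 lost it without WT 1 or WT 2, Dlx6 without KO 2 or any 1 WT pool and Sp9 without KO 2, WT 1 or WT 3.

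**Figure D4:**
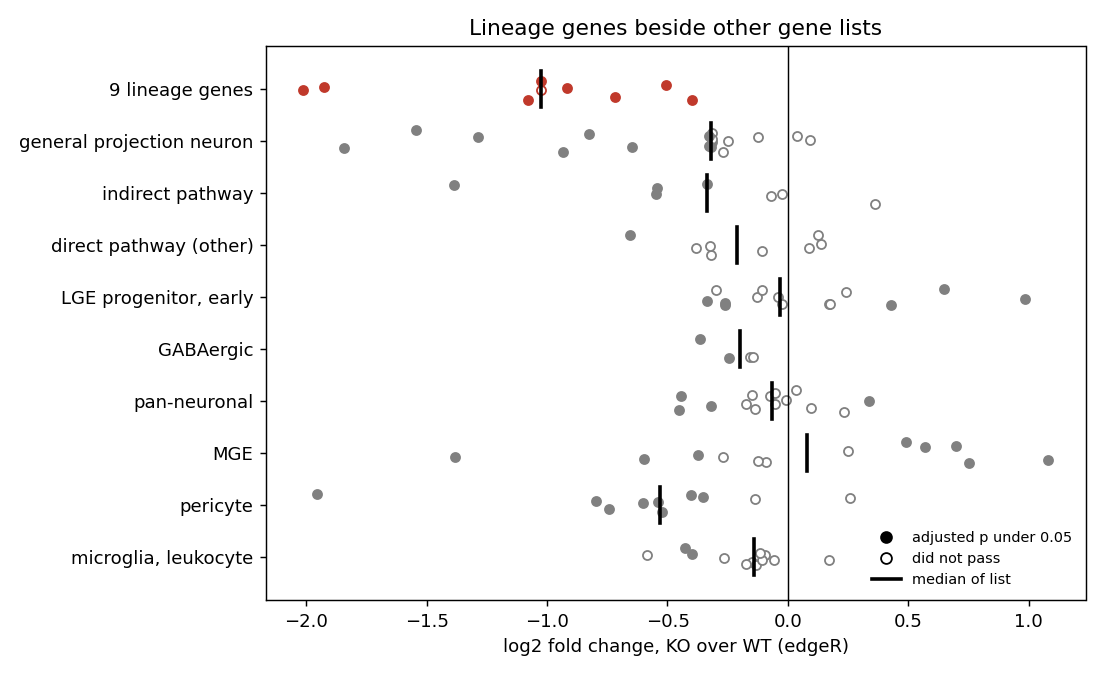
Log2 fold changes (KO over WT) of single genes in the 9 lineage genes (red) and in other lists (grey), 1 row per list; filled points passed at an adjusted p under 0.05 and black bars are list medians. The median of the 9 genes is at -1.03, the general projection neuron list at -0.32 and the progenitor list at -0.03.

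Markers of general neuronal and GABAergic content were read beside the 9 genes. Summed pan-neuronal genes were at 6613 to 7250 CPM in KO and 7171 to 7717 CPM in WT, with 3 of 14 lower, 1 higher and a median log2 fold change of -0.06. The number lower was 5 without KO 1, 1 without KO 2 or WT 2 and 0 without WT 3, and the 1 higher was lost without KO 3 or any 1 WT pool. Gad1, which makes GABA, fell 1.29-fold to 205 ± 1.06 CPM in KO, against 264 ± 0.861 CPM in WT (edgeR adjusted p = 0.00161). Relative to Gad1 in the same pool, Foxp1 counts were at 0.216, 0.186 and 0.182 in KO 1 to 3, against 0.362, 0.244 and 0.320 in WT 1 to 3. Bcl11b counts were at 1.85, 1.59 and 1.36 times Gad1 in KO 1 to 3, against 2.24, 1.92 and 1.98 times in WT 1 to 3. Both ratios were lower in every KO pool than in any WT pool (differences of mean log2 ratios -0.65 and -0.36, exact two-sided permutation p = 0.1 each, the smallest allowed). With libraries scaled to the pan-neuronal sum, which moved the median of all genes to 0.12, 7 of the 9 genes were called lower, and Ebf1 and Foxp2 did not pass.

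Radial glia genes moved the other way, with 10 of 12 higher, 1 lower (2 without KO 1) and summed levels of 3342 to 3737 CPM in KO and 2378 to 2513 CPM in WT. Red cell markers differed as well. Embryonic globins made up 69.6%, 73.6% and 71.4% of globin counts in KO 1 to 3, against 22.2%, 19.4% and 25.7% in WT 1 to 3. Embryonic globins give way to adult forms as embryos age, and effects of embryo age and of genotype on the 9 genes cannot be told apart with these groups. Of 12 MGE markers 5 rose (3 without WT 3) and 3 fell. Of 12 cortical excitatory markers 5 rose and 1 fell, with a median log2 fold change of 0.94. Their summed levels were 146 to 199.7 CPM in KO and 208 to 209 CPM in WT. Cux2, the one that fell, had 85.7 ± 10.1 CPM in KO and 158 ± 18.6 CPM in WT (edgeR adjusted p = 0.00071). It was the largest part of the sum in every pool, so the sum does not give the direction of the other markers. The number of cortical markers that rose was 3 without KO 1 or WT 2, 2 without KO 3 or WT 1, and 1 without WT 3. Of 7 tested markers of the caudal ganglionic eminence 2 rose (1 without KO 3), 1 fell and 4 did not pass. Nr2f1 and Nr2f2, which encode nuclear receptors and carry most of the summed level, rose to 429 ± 46.5 and 231 ± 29.7 CPM in KO, against 224 ± 19.2 and 118 ± 29.1 CPM in WT (edgeR adjusted p = 0.000294 and 0.0154). Htr3a, a serotonin receptor gene of interneurons from that eminence, fell 5.17-fold to 2.36 ± 1.11 CPM in KO, against 12.3 ± 2.15 CPM in WT (edgeR adjusted p = 0.00158).

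Cell types that share members with the projection neuron lineage were read beside them. For Ikzf1, the leukocyte gene Ptprc had 0.799 ± 0.0573 CPM in KO and 0.848 ± 0.0884 CPM in WT and did not pass (edgeR adjusted p = 0.76). Ptprc had few reads, with 38, 29 and 41 in KO 1 to 3 and 42, 25 and 34 in WT 1 to 3. Of 12 microglia and leukocyte markers 2 fell (0 without any 1 pool other than KO 1) and 10 did not pass, with sums of 38.1 to 46.2 CPM in KO and 48.8 to 49.97 CPM in WT. Those that fell were Csf1r and Cx3cr1, each with all KO pools below all WT pools. Their log2 fold changes were -0.43 and -0.40 (SE 0.12 each, edgeR adjusted p = 0.0308 and 0.0402). Ikzf1 counts were 2.08, 2.00 and 1.85 times those of Ptprc in KO 1 to 3, against 8.31, 6.24 and 7.68 times in WT 1 to 3 (difference of mean log2 ratios -1.89, exact two-sided permutation p = 0.1, the smallest allowed). Of 8 lymphocyte markers 3 had enough reads to be tested, and Pax5, which encodes a factor of B cells and of other developing tissues, fell. It had 24, 12 and 27 reads in KO 1 to 3 (0.542, 0.329 and 0.489 CPM), against 63, 27 and 33 reads in WT 1 to 3 (1.37, 0.807 and 0.8605 CPM), a 2.22-fold difference (edgeR adjusted p = 0.0238). The Pax5 call was the only one of the list, and the number was 0 without KO 2, KO 3, WT 1 or WT 3. The B cell genes Cd79a and Vpreb1 did not pass, with 10 to 31 and 12 to 35 reads in KO pools and 11 to 19 and 16 to 28 reads in WT pools. The summed list was at 1.38 to 2.07 CPM in KO and 1.85 to 2.58 CPM in WT, and the part of blood cells in the Ikzf1 and Ebf1 results was not tested beyond these values.

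For Ebf1, pericyte markers moved in the same direction, as 8 of 10 fell with a median log2 fold change of -0.53. Without KO 2, KO 3, WT 1, WT 2 or WT 3 the number was 3, 3, 4, 3 and 3. Their summed level was 199 to 265 CPM in KO and 245 to 257 CPM in WT. Notch3, a Notch receptor gene that did not pass (edgeR adjusted p = 0.0847), made up 52.7% to 55.0% of that sum in KO and 38.7% to 41.2% in WT. Without Notch3 the sum was 125, 89.5 and 98.5 CPM in KO 1 to 3, against 151, 148 and 150.1 CPM in WT 1 to 3, with no overlap. Pdgfrb, the receptor gene that marks pericytes, had 22.1 ± 3.40 CPM in KO and 29.2 ± 1.48 CPM in WT (edgeR adjusted p = 0.0267, a call lost without any 1 pool other than KO 1). Ebf1 counts were 2.497, 2.58 and 1.76 times those of Pdgfrb in KO 1 to 3, against 4.58, 3.03 and 3.36 times in WT 1 to 3, with no overlap (difference of mean log2 ratios -0.68, exact two-sided permutation p = 0.1, the smallest allowed). The part of pericytes in the Ebf1 result was not tested beyond this ratio.

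**Figure D5:**
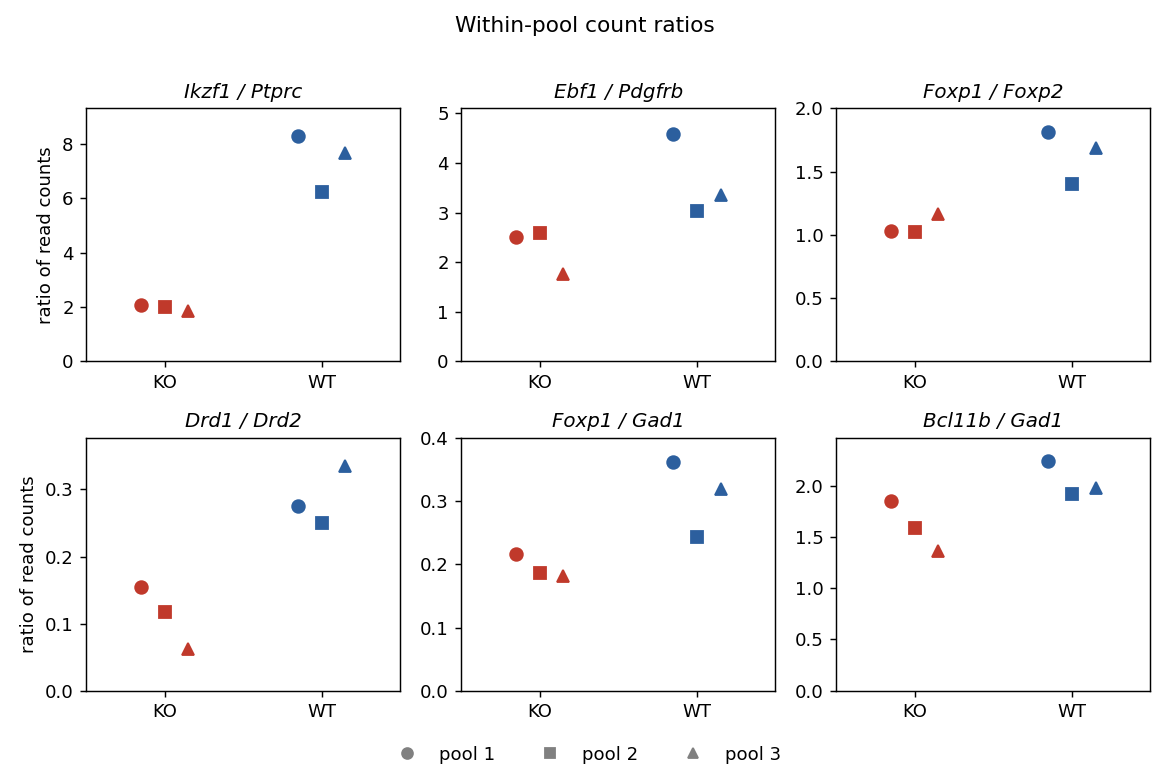
Ratio of read counts of 2 genes within the same pool (vertical axis from 0), KO left of WT, with 1 symbol per pool number. In all 6 panels the 3 KO pools lie below the 3 WT pools, for example 1.85 to 2.08 in KO against 6.24 to 8.31 in WT for Ikzf1 over Ptprc.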

How the data were processed

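Total RNA libraries of embryonic day 14 MGE pools were compared between 3 KO and 3 WT pools, grouped by the labels, which describe separate pools of embryos. The submitters' processing notes name build GRCm38 and the tools DESeq2, Subread 1.5.2 with featureCounts, STAR 2.5.2b and Trimmomatic 0.36. Raw counts of reads per gene, as deposited by the authors, entered every test. A normalized table with 6 value columns, 2 of which share 1 name, was not used here. The sources used here give no annotation release and no strand setting.

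Symbols, positions and exonic lengths came from GENCODE M21 (49056 of 49315 IDs matched), and promoter windows from RefSeq (GRCm38.p6). After filterByExpr (minimum count 10, minimum total 15), libraries were scaled with TMM factors and genes tested with edgeR 4.0.16 (R 4.3.3, robust quasi-likelihood, Benjamini-Hochberg over all 18079 tested genes, threshold 0.05). The procedure was tested on simulated data. The standard error is the log2 fold change over the square root of F. Log2 CPM used a prior count of 2, and mean log2 ratios of counts an added 0.5, while printed ratios carry none. Same-numbered pools did not deviate together (sensitivity part), so the comparison was unpaired.

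Members, lists and tests were chosen with earlier results of these data known. Named were all 9 members, up to 4 genes of each list with the smallest p, ratio genes and nearest genes. Prdm16, Nkx2-1, Isl1, Tac1, Meis1, Ebf2, Ebf3, Notch3 and, in captions, Ebf4 were named after their values were seen. Alternatives were 3 other scalings, pan-neuronal scaling, 2 other filters, DESeq2 1.42.0, limma voom (3.58.1), no robust spread, a replicate block and each library left out. The number of libraries and the read depth limit the precision, most for Drd1 and Ppp1r1b.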

Additional observations from a re-analysis of the deposited data

How the results depend on the processing

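The 9 genes and the alternatives made 143 pairs, of which 124 gave the same call and direction, 13 lost the call, 6 gained it (Ppp1r1b in each) and 0 reversed. Leaving out 1 pool gave 464 to 3752 genes higher and 727 to 3804 lower, and 5 to 9 of the 9 genes lower with 0 higher, with fewer samples in each such fit. Pan-neuronal scaling gave 3350 higher and 1175 lower genes and moved the median log2 fold change to 0.12; the cause was not tested. With the replicate number as a block 862 genes were higher and 1219 lower, with 8 of the 9 genes lower, and deviations of same-numbered pools correlated at -0.08, -0.12 and 0.03, which does not pair the pools. DESeq2 and limma voom each called all 9 genes lower and 0 higher, and scaled by total counts alone Ppp1r1b also passed (adjusted p = 0.0499). Ppp1r1b was not tested under the stricter filter, nor was Ptprc. Pan-neuronal scaling lost the calls of Ikzf2, Bcl11a, Sp9, Dlx6 and Zhx3, and the replicate block those of Drd2, Chrm4, Dlx6 and Pdgfrb. Among 33 of the other named genes, 457 of 527 such pairs were unchanged, 47 lost the call, 16 gained it and 7 reversed, none of them called. These were Isl1 (0.0095) and Ptprc (0.016) with pan-neuronal scaling, Tac1, which ran from -0.14 (without KO 1) to 0.25 over the leave-outs and was -0.019 without WT 2, and Prdm16, which ran from -0.034 (without WT 3) to 0.13 and was -0.025 without KO 1 and -0.012 without WT 2. Depth limits Drd1 and Ppp1r1b most, with 11 to 41 reads per KO pool.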
